A study of Arabidopsis thaliana with 5 samples.

Results

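The regions described here lie between genes and were listed as bound by both BLUEJAY (BLJ) and JACKDAW (JKD) in roots of Arabidopsis thaliana. A region of the BLJ list was taken when it and a region of the JKD list overlapped by at least 50% of the length of both, and when its midpoint lay outside every protein-coding gene on chromosomes 1 to 5. This left 1839 of the 24229 BLJ regions, each with 1 JKD partner. They were chosen from the authors' own calls for both factors and from gene positions, so their number, overlap, density and reproducibility are given as descriptions, with no test.

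The data came from chromatin immunoprecipitation followed by sequencing (ChIP-seq). Columbia plants carried BLJ or JKD fused to yellow fluorescent protein, and whole roots grown on plates without supplement were fixed and precipitated with an antibody against GFP. The 5 libraries comprised 2 of BLJ-YFP roots, 2 of JKD-YFP roots and 1 wild-type control. The labels state that the BLJ fusion was expressed in the ground tissue, while the JKD fusion was expressed there and in the stem cell organizer known as the quiescent centre. The sources used here do not give the promoters of the fusions, the number of lines or the age of the plants. No wild-type region table was analysed, read depth is unknown, and no value below has a control background beside it.

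BLJ and JKD belong to the INDETERMINATE DOMAIN (IDD) family, transcription factors with C2H2 zinc fingers that bind DNA and also bind the GRAS proteins SHORT-ROOT and SCARECROW. Together these proteins set the division and identity of cortex and endodermis, the ground tissue of the root. DNA between genes holds the promoters and many of the elements through which such factors act, but it also holds non-coding RNA genes, pseudogenes and the downstream ends of genes. The gene table gives no strand, so a region beside a gene cannot be placed upstream or downstream of it.

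Lying between genes was about as common among shared regions as in the whole BLJ list. Of all BLJ regions, 45.3% overlapped a JKD region at the 50% limit (10978 of 24229). Of these 10978 shared pairs, 1839 (16.8%, 95% Wilson interval 16.1 to 17.5) had the BLJ midpoint between genes, while the background was 16.6% of all BLJ regions and 21.7% of all JKD regions. DNA outside protein-coding genes makes up 45.9% of the 5 chromosomes. The JKD midpoint of the pair was also between genes for 1518 of the 1839 (82.5%). The intervals cover counting error only, since a list is 1 set of calls.

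The share between genes was higher among the denser pairs. Each region carries 2 density values, which stand for the replicates in an unstated order, and pairs were ranked by the summed ranks of the mean log2 density in both lists. Ranked regions were cut into 5 classes of equal size. In the fifth of highest density among shared pairs 517 of 2196 (23.5%, 21.8 to 25.4) lay between genes, and in the fifth of lowest density 271 of 2195 (12.3%, 11.0 to 13.8). The shares fell at every step from the densest to the least dense. BLJ regions that were not shared gave 28.6% at the dense end and 10.7% at the other, and all JKD regions gave 29.3% and 16.9%, in the same direction as the shared pairs. Regions between genes were also narrower, and 26.7% of the fifth of shared pairs with the smallest width lay between genes against 10.9% of the widest. Among the narrowest pairs, 44.0% of the densest pairs and 13.7% of the least dense lay between genes. Among the widest pairs these shares were 12.7% and 7.29%.

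**Figure D1:**
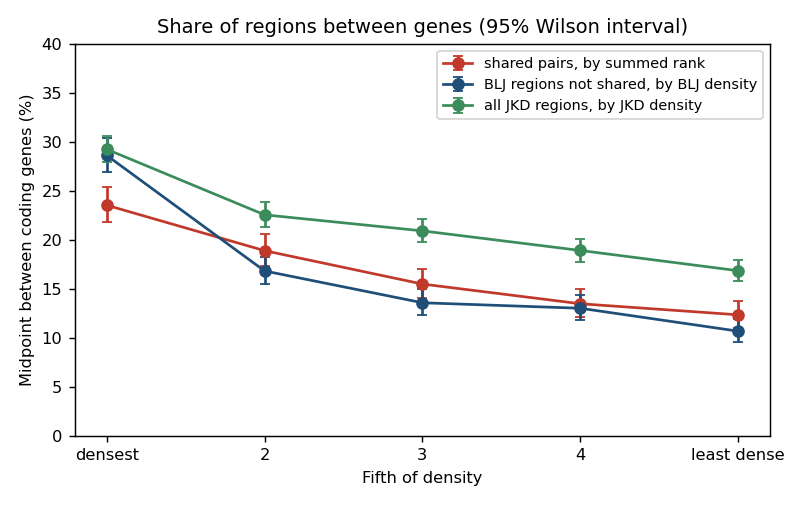
Percent of regions whose midpoint lay between protein-coding genes (y axis) by class of density, each holding the same number of regions, from the densest to the least dense (x axis), with 95% Wilson intervals as bars. All 3 sets fall from left to right, from 23.5% to 12.3% in the shared pairs, 28.6% to 10.7% in BLJ regions not shared and 29.3% to 16.9% in all JKD regions.

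The shared regions between genes ranked above the middle of both lists by each of the 4 listed values. The median BLJ density was 1.69 by the value listed first and 1.50 by the one listed second, which corresponds to median percentiles of 65.0 and 70.9 in the whole list. The median JKD densities were 1.14 and 1.59, at percentiles of 66.3 and 68.4. Shared regions inside genes had median percentiles of 55.0 and 66.4 in the BLJ list and of 57.2 and 58.7 in the JKD list, lower for every value. All 4 values lay above their list medians in 599 of the 1839 (32.6%), where the background over all shared pairs was 24.2%. Both mean log2 densities were in the top 10% of their lists for 241 regions (13.1%), with a background of 8.41%. BLJ regions between genes with no JKD overlap had median percentiles of 60.2 by their first value but 35.8 by their second.

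**Figure D2:**
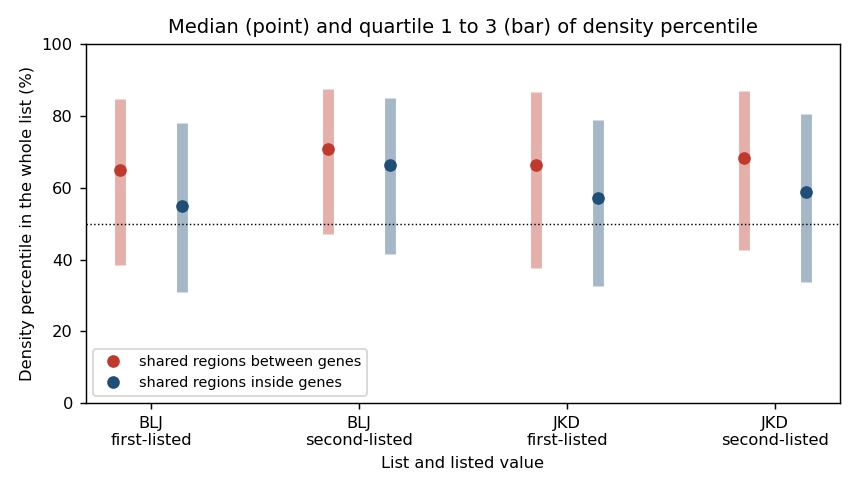
Median (point) and lower to upper quartile (bar) of the density percentile in the whole list (y axis) for both listed values of both factors (x axis), for shared regions between and inside genes. The dotted line marks the list median at 50, and all medians lie above it, between 65.0 and 70.9 for regions between genes.

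Density of one factor went with density of the other across these regions. The Spearman correlation of mean log2 density was 0.61 over 1839 regions, and 0.59 over the 9139 shared regions inside genes. Regions of a list share libraries, depth and base composition, so these values are descriptions. Taken one listed value at a time, the correlation was 0.35 between the first-listed values and 0.56 between the second-listed values. Since the order is unstated the cross pairings count alike, and they gave 0.25 for the first BLJ with the second JKD value and 0.39 for the second BLJ with the first JKD value. The pair of values within a list went together less than that in BLJ, with a correlation of 0.19, and in JKD it was 0.43. The second-listed JKD value exceeded the first in 1832 of the 1839 regions, as it did in 21935 of all 21985 JKD regions, and the first-listed BLJ value exceeded the second in 1303 (70.85%), against 80.1% of all BLJ regions.

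Reproducibility was read from the irreproducible discovery rate (IDR) that the authors gave each region, where a low value means that both replicates ranked it high and alike. An IDR at or below 0.05 was reached by 190 members in the BLJ list (10.3%, background 8.21%) and by 585 in the JKD list (31.8%, background 17.7%). In both lists at once it was reached by 102 (5.55%, background over all shared pairs 3.20%). When shared pairs were limited to that IDR in both lists, 102 of 351 lay between genes (29.1%). IDR correlated with density at -0.38 in BLJ and -0.79 in JKD over the members. The median IDR of the members was 0.147 in BLJ and 0.096 in JKD.

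The BLJ and JKD regions of a pair were close in place and width. Their midpoints lay a median of 93 bp apart, the median widths were 945 bp for BLJ and 950 bp for JKD, and 326 pairs (17.7%) overlapped by at least 90% of both. Shared regions inside genes were wider, with a median of 1288 bp for BLJ. At the limit of the rule, the pair beside AT2G25964 and AT2G25970 on chromosome 2 had 100% of the BLJ and 50.0% of the JKD region in common, with BLJ densities of 1.33 and 2.12 beside JKD densities of 1.09 and 1.50. The nearest pair beyond the limit, on chromosome 2 at 1572180 to 1572859 for BLJ, overlapped 49.96% of its JKD region and had BLJ values of 2.07 and 1.33 beside JKD values of 1.16 and 1.66. The next, on chromosome 1 at 28693320 to 28693855, overlapped 49.95% and had values of 2.07 and 1.57 in the BLJ list, 1.31 and 1.81 in the JKD list.

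Most of the regions sat close to a gene. The midpoint lay a median of 484 bp from the nearest protein-coding gene, within 1000 bp in 1299 regions (70.6%, 68.5 to 72.7) and within 5000 bp in 1817 (98.8%). BLJ regions between genes with no JKD overlap had a median of 884 bp and JKD regions with no BLJ overlap 849 bp, and 53.6% and 56.7% of these lay within 1000 bp. BLJ regions between genes that overlapped a JKD region by less than the limit lay closer than the shared regions, with a median of 370.5 bp and 77.05% within 1000 bp, so closeness to genes was not particular to the shared regions. Of the shared regions, 904 (49.2%) reached into a gene with one of their ends, and 396 of these did so on both sides. Among BLJ regions between genes that overlapped JKD by less, 53.1% reached a gene, and 25.5% of BLJ and 25.6% of JKD regions without overlap did so. Regions without overlap were narrower, with median widths of 589 bp (BLJ) and 564 bp (JKD), where shared regions had 945 and 950 bp. They also lay in wider gaps, with medians of 3939 and 3517 bp against 2490 bp. The part of width and gap size in these shares was not tested. The other 935 shared regions lay wholly between genes. In all, members overlapped 1364 protein-coding genes, 4.97% of 27444. Regions that reached genes on both sides were wider, with a median of 1929 bp in a gap of 436.5 bp, where regions wholly between genes had 737 bp in a gap of 4312 bp. Density changed little with distance: the median percentile within 250 bp of a gene was 70.4 for BLJ and 67.6 for JKD, and beyond 2000 bp it was 75.7 and 75.2.

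**Figure D3:**
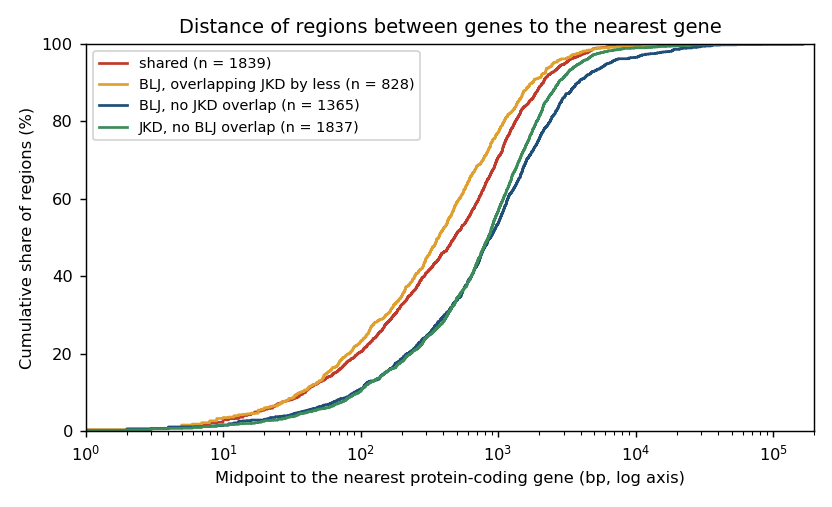
Cumulative share of regions (y axis, percent) by distance from the midpoint to the nearest protein-coding gene (x axis, bp, log scale) for shared regions between genes, BLJ regions that overlapped JKD by less, and regions of either list without overlap in the other. The shared curve, with a median of 484 bp, lies between that of regions overlapping by less (370.5 bp) and those without overlap (884 and 849 bp).

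The regions were spread over 1749 gaps between neighbouring genes, of which 1670 held 1 region and none more than 4. The region before NAC001 lay at a chromosome end and in no such gap. Of all 23810 gaps between genes, 7.35% held a member. The share was 2.68% in gaps of up to 500 bp, 14.1% in gaps of 2000 to 5000 bp and 19.2% in gaps of 5000 to 10000 bp, and it was 13.6% in gaps over 10000 bp. Per length of gap there were 134.8 members per Mb in the shortest and 5.47 per Mb in gaps over 10000 bp. Chromosome 1 held 490 regions, chromosome 5 held 401, chromosome 3 held 351, chromosome 2 held 334 and chromosome 4 held 263, between 7.04% and 8.56% of the BLJ regions of each. In windows of 1 Mb the count had a median of 16 and a Spearman correlation of 0.65 with the number of genes over 121 windows. The 2 windows with no member lay side by side at 11 to 13 Mb of chromosome 5, where the table has 16 and 26 genes per window.

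The region with the smallest summed rank stood 2555 bp from MYB73 (AT4G37260), a MYB transcription factor of stress responses. It spanned chr4:17537529-17538340 in the BLJ list, on build TAIR9 as all coordinates here, and held BLJ values of 3.08 and 3.42 beside JKD values of 1.93 and 3.35. All 4 values were far above the list medians, and the IDR was 0.00543 and 0.000371. It touched no gene of any class at its midpoint, and its other neighbour, AT4G37250, was 7346 bp away.

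The region at ERF4 (AT3G15210), an ethylene response factor that represses transcription, had its midpoint 1081 bp from the gene and reached into it. It held BLJ values of 2.00 and 4.08 beside JKD values of 1.46 and 3.92, all 4 above the list medians. The BLJ region was 5085 bp wide and the JKD region 5439 bp, both wider than the gap of 4027 bp. The midpoint of this region lay in AT3G00330, a gene classed as miscellaneous RNA. TPR1 (AT1G80490), a TOPLESS-related corepressor, was 361 bp from the midpoint of a region at chr1:30267002-30267970 with BLJ densities of 2.07 and 3.20 beside JKD densities of 1.82 and 2.97. That region ranked higher by its second-listed than by its first-listed BLJ value. WRKY47 (AT4G01720), a WRKY transcription factor, lay 595 bp from the midpoint of a region with values of 2.68 and 2.999 in the BLJ list, 2.08 and 2.90 in the JKD list. Here and below, a pair of percentiles gives the rank of the mean log2 density in the BLJ list and then in the JKD list, and this region stood at 99.9 and 99.9.

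The remaining 6 of the 10 densest had varied neighbours. A region at chr4:12685512-12690099 filled the gap between DIC2 (AT4G24570), a mitochondrial dicarboxylate carrier, and REN1 (AT4G24580), a regulator of ROP signalling in pollen tubes. It reached into both genes, with values of 1.99 and 3.46 in the BLJ list, 1.27 and 3.73 in the JKD list. The BLJ region was 4588 bp wide in a gap of 228 bp, and the JKD midpoint lay inside a coding gene. The highest first-listed BLJ value of the 10 was 5.13, in a region at chr5:17429854-17430392 that lay 1026 bp from AT5G43401 and 4887 bp from AT5G43410, with 2.77 as the second value and 1.62 and 2.43 for JKD. Its BLJ IDR of 0.00495 was the lowest among the 1839 regions. The 5 regions with the lowest IDR in both lists, taken by the larger of the pair, were all among the 10 densest. A region at chr4:18119350-18120398 lay between AT4G38810 and AT4G38825, the latter listed as SAUR13, one of the small auxin-upregulated RNAs. It held BLJ values of 2.88 and 3.02 beside JKD values of 1.73 and 2.52. The midpoints of the other 3 lay in long non-coding RNA genes, between AT4G37685 and AT4G37690, between AT1G64380 and AT1G64385, and between AT2G07621 and AT2G07673. Their BLJ values ran from 1.99 to 3.84 and their JKD values from 1.27 to 3.14. The last of these lies on chromosome 2 at 3263859 to 3266398, while a wide block of JKD cover begins at 3296001.

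**Figure D4:**
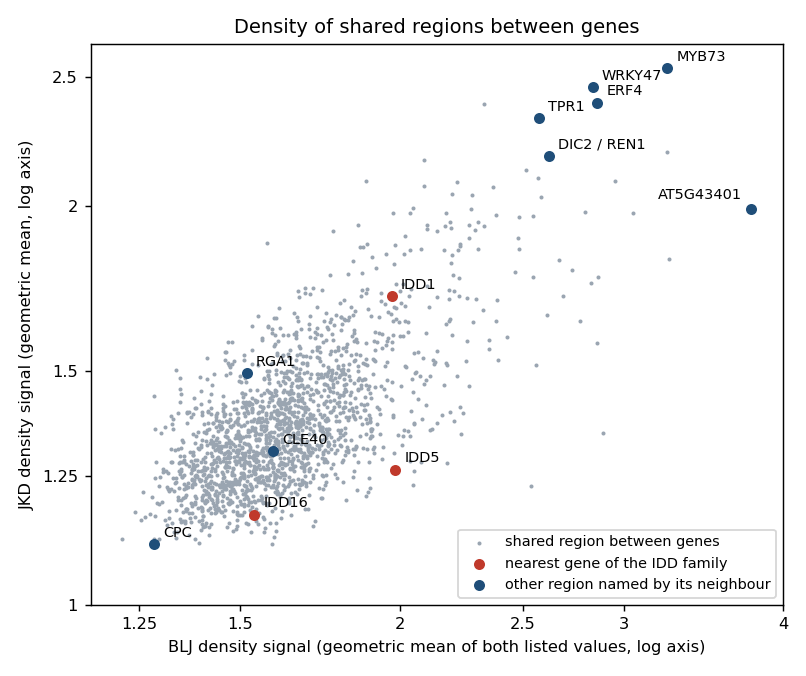
JKD density (y axis) against BLJ density (x axis) of the 1839 shared regions between genes, each the geometric mean of both listed values on a log axis, with regions named by a neighbouring gene. The regions by MYB73, WRKY47, ERF4 and TPR1 lie at the top right, and those by the IDD genes spread from the lower left (IDD16) to the upper middle (IDD1).

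Some pairs ranked far apart in the 2 lists. The largest gap in favour of BLJ was 631 bp from sks4 (AT4G22010), a SKU5-like gene, with a percentile of 85.8 in the BLJ list and 5.44 in the JKD list. It had values of 1.82 and 1.61 in the BLJ list, 1.04 and 1.26 in the JKD list. The next, at 86.3 and 7.96, lay 1837 bp from AT2G41890 and 7193 bp from OXS2 (AT2G41900), a zinc finger protein of oxidative stress. The one after it, at 92.4 and 20.5, reached into AT1G49850, which was 307 bp from its midpoint. Its other neighbour, GSTF14, a glutathione transferase, was 1600 bp away. In favour of JKD the largest gap was beside AT5G07330, at 5.61 in BLJ and 86.2 in JKD, with BLJ values of 1.47 and 1.12 beside JKD values of 1.22 and 1.70. The regions beside GPK1 (13.1 and 91.8), a protein kinase, and SUE4 (15.1 and 90.4) followed. All 6 passed the overlap rule, so a region can be called for both factors and rank low for one. In the pairs beside AT5G07330 and GSTF14 the JKD midpoint lay inside a coding gene.

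The widest region by its BLJ call, 8511 bp at chr2:17264667-17273177, filled the gap between WIH2 (AT2G41420) and ERD15 (AT2G41430), a gene responsive to dehydration. That gap measured 957 bp, so the region reached into both genes and most of its length lay outside the gap. The region had values of 1.58 and 2.34 in the BLJ list, 1.21 and 2.12 in the JKD list. The region farthest from any protein-coding gene lay 27023 bp from AT3G42723 and 50740 bp from CHR38 (AT3G42670), known as CLASSY 1, a factor of RNA-directed DNA methylation. At BLJ values of 1.60 and 1.39 beside JKD values of 1.16 and 1.48 it ranked near the middle of both lists. The next farthest, 24949 bp from YY1 (AT4G06634), a zinc finger factor, lay in a pseudogene and ranked at 99.0 and 98.7.

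Of the 16 genes of the IDD family, 3 (18.8%) lay within 1000 bp of a shared region between genes. The background over all 27444 protein-coding genes was 9.10% (2498 genes). The summed gap on both sides of a gene had a median of 6194 bp for this family and 1856 bp over all genes. The part of gap size in this share was not tested. Of the 16, 12 lay near regions of both factors (background 71.2% of all genes) and 3 near a shared region inside genes (background 48.4%). IDD1 (AT5G66730), known as ENHYDROUS from seed maturation, was 493 bp from the midpoint of the densest shared region between genes near the family, at percentiles of 96.7 and 98.2. That midpoint lay in a long non-coding RNA gene, AT5G09695. The region beside IDD5 (AT2G02070), known from starch metabolism, had its midpoint 105 bp from the gene and reached into it. It spanned chr2:504773-505766 with values of 2.82 and 1.40 in the BLJ list, 1.11 and 1.44 in the JKD list. It ranked at 96.9 in the BLJ and 45.0 in the JKD list, so only the first-listed BLJ value was high. The region 895 bp from IDD16 (AT1G25250) ranked at 59.9 and 11.2 and was among the nearest to the overlap limit, with 50.04% of the BLJ region in common.

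None of the 13 ground tissue regulators lay within 1000 bp of a shared region between genes, where the background was 9.10% of all genes. The list holds SHORT-ROOT, SCARECROW, SCL3, SCL23, CYCD6;1, RBR1, MYB36, HSFB4 and the IDD genes MGP, NUC, JKD, BIB and BLJ (AT1G14580). Of the 13, 12 lay near regions of both factors and 7 near a shared pair whose midpoint was inside a gene, SHORT-ROOT and SCARECROW among them. The background for these was 71.2% and 48.4% of all genes. No test was run on these counts.

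Other root lists held between 0 and 2 genes each, beside a background of 9.10% of all genes. The shares were 9.09% for the quiescent centre and stem cells, 20.0% for epidermis, 12.5% for gibberellin and 7.14% for cell cycle. No test was run on counts this small, and a count of 0 in a short list does not show an absence. The 12 endodermis barrier genes, 12 stele genes and 15 auxin genes held none. Among 11 genes of the quiescent centre and stem cells, CLE40 (AT5G12990), a peptide that restricts root stem cells, had a region at chr5:4109586-4110239 between it and GSL12 (AT5G13000), a callose synthase that narrows plasmodesmata. This region had BLJ values of 1.75 and 1.45 beside JKD values of 1.10 and 1.56, in the upper middle of both lists. Among 10 epidermis genes, CAPRICE (CPC, AT2G46410), a small MYB protein that promotes root hair fate, lay 745 bp from the midpoint of a region at percentiles of 5.75 and 1.07, one of the least dense. TTG1 (AT5G24520), a WD40 protein of epidermal patterning, lay within 1000 bp of a region between AT5G24500 and AT5G24510, at 89.3 and 62.9.

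Among 16 gibberellin genes, the DELLA repressor RGA1 (AT2G01570) and the receptor GID1A (AT3G05120) were near members. DELLA proteins are broken down when the receptor binds gibberellin, and they also bind IDD proteins. The region 1148 bp from RGA1 held values of 1.92 and 1.20 in the BLJ list, 1.16 and 1.93 in the JKD list, high in 1 value of each list. The region reaching into GID1A held BLJ values of 1.48 and 1.53 beside JKD values of 1.06 and 1.98. Both ranked near the middle of the BLJ list, at 55.6 and 52.7, and higher in the JKD list, at 91.2 and 87.1. For GID1A the JKD rank rested on the second-listed value, at a percentile of 94.8 against 32.9 for the first. The IDR was 0.173 in BLJ and 0.278 in JKD for GID1A, and 0.243 and 0.0211 for RGA1. Among 14 cell cycle genes, the D-type cyclin CYCD4;2 (AT5G10440) was near a region at 68.9 and 87.0 that reached into GRF6 (AT5G10450), a 14-3-3 protein. The BLJ midpoint lay 1153 bp from CYCD4;2 and 147 bp from GRF6, and the JKD midpoint lay inside a coding gene.

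Among transcription factor families drawn by gene symbol, the shares ran from 7.44% to 25.0%, around the background of 9.10%. The ERF family had 13 of 52 genes near a member (25.0%), WRKY 14 of 67 (20.9%), NAC 14 of 81 (17.3%), bHLH 2 of 13 (15.4%), HSF 2 of 20 and MYB 9 of 121 (7.44%). The families also differed in the room around their genes. The summed gap on both sides had a median of 1856 bp over all genes, 4500 bp for ERF, 4241 bp for WRKY, 3368 bp for NAC, 3076 bp for bHLH, 2002 bp for HSF and 5600 bp for MYB. The part of gap size in these shares was not tested.

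**Figure D5:**
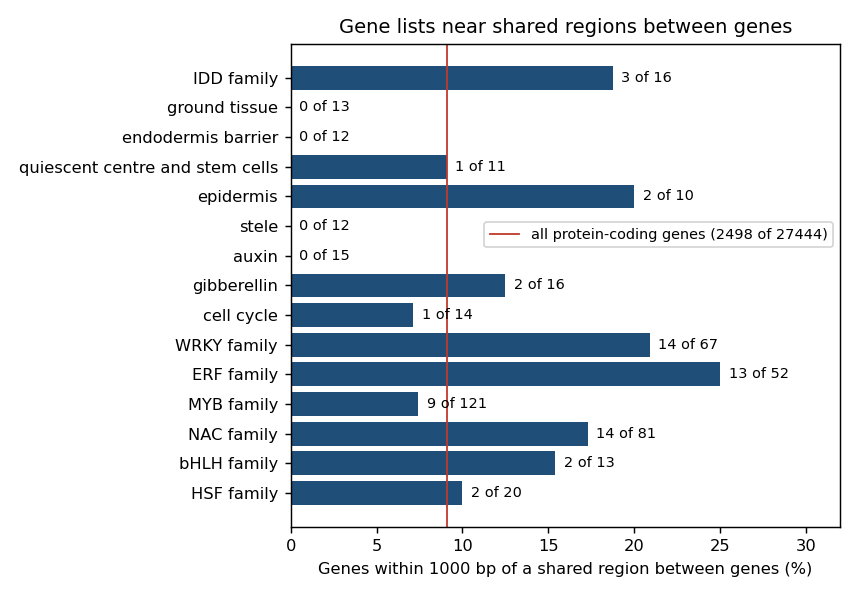
Percent of the genes of each list within 1000 bp of a shared region between genes (x axis), with counts beside the bars and a line at the share of all protein-coding genes, 9.10%. The ERF family reaches 25.0%, and 4 lists hold none.

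Density near the family members varied widely, and a dense region did not always have a low IDR in both lists. In BLJ the IDR was 0.0125 near MYB74 and 0.0436 near WRKY28, but 0.201 near NAC001, 0.246 near MYB28 and 0.2775 near bHLH104. The JKD IDR near NAC001, MYB28 and bHLH104 was 0.00629, 0.0103 and 0.0764. In the ERF family, ERF8 (AT1G53170), a repressor, had a region at chr1:19819774-19822415 that reached into the gene, with values of 1.88 and 2.88 in the BLJ list, 1.45 and 2.58 in the JKD list. CBF4 (AT5G51990), a drought-responsive factor, followed at percentiles of 89.3 and 92.3, and ERF15 (AT2G31230) at 82.4 and 92.9. The median over the 13 ERF genes was 77.9 for BLJ and 89.0 for JKD, where all genes near a member had 73.1 and 69.7. ERF11 and ERF12 lie beside each other and share 1 region, at 32.6 and 89.0.

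In the WRKY family the regions after that at WRKY47 lay near WRKY28 (97.3 and 96.0), WRKY18 (91.2 and 76.6), a factor of defence, and WRKY43 (95.3 and 71.4). The median over the 14 genes was 79.2 for BLJ and 71.4 for JKD. Within 1000 bp of WRKY11, another factor of defence, the region ranked at 19.0 and 33.7.

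The MYB genes with the densest regions were MYB74 (AT4G05100), MYB28 (AT5G61420), which controls aliphatic glucosinolates, MYB108 (AT3G06490) and MYB12 (AT2G47460), which controls flavonols. MYB74 lay 787 bp from the midpoint of a region with BLJ values of 2.37 and 2.49 beside JKD values of 1.36 and 1.86, high in all 4. The other 3 ranked between 82.6 and 87.0 in BLJ and between 90.4 and 95.9 in JKD. MYB73 is not among the 9, since its region ended over 1000 bp from the gene.

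NAC genes with the densest regions were NAC001 (AT1G01010), the first gene of chromosome 1, at 88.2 and 95.5, NAC032 (AT1G77450) at 96.0 and 79.7, NAC038 at 78.8 and 89.5 and NAC077 at 77.6 and 86.7. Of the heat shock factors, HSFA6B (AT3G22830) had a region at 90.8 and 97.5, and HSFA7A (AT3G51910) shared a region with CAM9 (AT3G51920), a calmodulin-like protein. That region had BLJ values of 1.66 and 2.02 beside JKD values of 1.16 and 2.06. Of the 13 bHLH genes drawn by symbol, the 2 near a member were BHLH100 and bHLH104, both known from iron deficiency. They had regions at 80.1 and 76.7 and at 83.8 and 82.6.

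Genes of other classes lay at the midpoint of 297 regions, and the other 1542 (83.9%) lay outside genes of every class. Long non-coding RNA genes held 105 (5.71%), pseudogenes 82 (4.46%), transcribed pseudogenes 48, genes classed as miscellaneous RNA 31, other non-coding RNA genes 24, tRNA genes 9, snoRNA genes 3 and miRNA genes 1, and a midpoint can fall in several. These shares were not computed over other regions between genes, so the counts have no background and only describe the members. Regions over long non-coding RNA genes had median percentiles of 70.6 and 65.5, those over other non-coding RNA genes 52.1 and 44.5, and those outside every class 72.8 and 71.3. The 9 over tRNA genes ranged from 42.4 to 91.6 in BLJ and from 23.7 to 97.3 in JKD, the highest at AT1G48080. The miRNA gene was MIR159c (AT2G46255), named after its values were seen, whose family targets MYB transcripts related to gibberellin signalling. Its region, at chr2:18994466-18994886, ranked at 29.4 and 46.5, below the middle of both lists, with BLJ values of 1.61 and 1.24 beside JKD values of 1.18 and 1.37.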

How the data were processed

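Whole roots of 5 libraries were studied by ChIP-seq. Per the labels' protocols, precipitated DNA was linearly amplified, tagged by transposon insertion and sequenced as single reads of 50 bp, and the tools were CASAVA and Bowtie with build TAIR9 per the submitters' processing notes. The sources used here do not give the peak caller, the normalization or how the control was used. The authors deposited 1 list per factor, called on both replicates, with a density signal score per replicate and an IDR, read like a q-value or p-value. Both were used only within a list. Read depth is unknown. Wilson intervals cover counting error only.

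Genes came from an NCBI table of assembly TAIR10.1, with no strand and no sequence. Cover rose most steeply at gene edges without offset (0 bp) in all 5 chromosomes of both lists, tested up to 3000 bp either way in steps of 100 bp. Since strand and sequence were missing, gene bodies replaced the planned start sites and the planned motif search was not run. A gene was near a region within 1000 bp. Wide blocks were stretches where at least 90% of a 40000 bp window was covered, and 1 member lay in one. Named regions were, by rule, the 10 densest in both lists outside blocks, the 5 of lowest IDR in both, the 3 of largest rank gap each way, the 3 farthest and the 3 widest, those at IDD and ground tissue genes, up to 4 per other list, and those at the limit. The members, lists and rules were chosen with earlier results of these data known. Interval functions were tested on simulated data. The tools were scipy 1.17.1, matplotlib 3.10.9, numpy 2.4.6 and pandas 2.3.3 under Python 3.11.15.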

Additional observations from a re-analysis of the deposited data

How the results depend on the processing

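The number of shared regions between genes was 1839. It was 971 with 75% overlap, 340 and 102 with an IDR at or below 0.1 and 0.05 in both lists, and 935 where the whole region lay outside genes. It stayed within 1.5 times (1518 to 2667) under the other 4 choices. The share between genes, 16.8%, was 16.0% at 1 bp of overlap, 17.8% at 75%, 22.9% and 29.1% at the IDR limits, 14.0% (14.05) with genes of every class and 17.5% by the JKD midpoint. The share of members overlapping a gene, 49.2%, was 39.2% at an IDR of 0.05, 45.9% for the stretch common to both regions and 56.2% within 200 bp. The share of low IDR in both lists, 5.55%, was 18.5% at 0.1 and 0.544% at 0.01. Members overlapped 1364 genes, or 705 at 75% overlap. By construction, stricter limits leave fewer regions. The correlation of both densities was 0.25 to 0.56 over the 4 pairings of single listed values (0.35 for the first-listed pair). No paired analysis was possible because each list was called on both replicates and no test between libraries was made. The motif alternatives were not run, since no sequence was used here.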
